A study of Homo sapiens with 18 samples.

Results

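The genes described here are SREBF2 and 7 other genes of cholesterol synthesis and its control, HMGCS1, SQLE, INSIG1, IDI1, FDFT1, DHCR7 and LSS, taken by symbol from the deposited count table. They are 8 of 26485 gene symbols, and all 8 were among the 12832 genes tested. Genes tested had a CPM (counts relative to library size) above 1 in at least 3 libraries, before TMM scaling. The CPM values given below are TMM-scaled. RNAseq was performed on SW620 cells, a human colon cancer line, that received a scramble siRNA or siRNA against Lonp1 (siLonp1), a protease of the mitochondria encoded by LONP1. With each siRNA, cells stayed at 37 °C (Ctrl), had a heat shock of 1 h at 42 °C (HS), or had the same heat shock followed by 1 h of recovery at 37 °C (HS+REC). The 6 groups have 3 libraries each, which the study describes as independent biological replicates. All groups come from 1 line grown in medium with foetal bovine serum, none is labelled as starved of sterols, and the siRNA sequences used for RNAseq are not given in the sources used here.

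Cells build cholesterol from acetyl-CoA, first to mevalonate, then to isoprenoids and squalene, and finally through lanosterol to cholesterol. The pathway is controlled by SREBP2, the transcription factor encoded by SREBF2, which is kept in the endoplasmic reticulum by INSIG proteins while sterols are plentiful and is carried by SCAP to the Golgi, where it is cut and released to the nucleus, when sterols fall. It raises the genes of the synthetic enzymes and INSIG1 itself, so that the pathway feeds back on its own control. Epithelial cells of the colon, like other dividing cells, need its products for new membranes.

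The enzymes act in a fixed order. HMGCS1 makes HMG-CoA, the precursor of mevalonate, and IDI1 interconverts the isoprene units from which longer isoprenoids are built. FDFT1 joins farnesyl units to squalene, SQLE adds oxygen to squalene, LSS closes the ring to give lanosterol, and DHCR7 carries out a last reduction to cholesterol. SREBF2 lies at chr22:41833105-41907306, INSIG1 at chr7:155297776-155310235, HMGCS1 at chr5:43287470-43313512, IDI1 at chr10:1039152-1049119, DHCR7 at chr11:71428193-71452868 and LSS at chr21:46188141-46228824 (hg38, GENCODE annotation). SREBF2, HMGCS1, IDI1, FDFT1 and LSS share exonic bases with annotated genes on the opposite strand. The strand setting of the counting is not given in the sources used here, so reads of these partners cannot be told apart from theirs.

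The 250 bases before the annotated start are shown for the 6 genes with an entry in the promoter table of RefSeq (GRCh38.p14), because SREBP2 acts on such sequences and the 6 genes differed in their response. The windows are chr22:41832855-41833104 and chr7:155297628-155297877 on the plus strand, and chr5:43313413-43313662, chr10:1049120-1049369, chr11:71448394-71448643 and chr21:46228775-46229024 on the minus strand. Each is written 5′ to 3′ on the strand of its gene. Capitals mark the letters TCACNCCAC, a sterol regulatory element-like motif, and CCAAT, the motif of the factor NF-Y, on either strand.
SREBF2: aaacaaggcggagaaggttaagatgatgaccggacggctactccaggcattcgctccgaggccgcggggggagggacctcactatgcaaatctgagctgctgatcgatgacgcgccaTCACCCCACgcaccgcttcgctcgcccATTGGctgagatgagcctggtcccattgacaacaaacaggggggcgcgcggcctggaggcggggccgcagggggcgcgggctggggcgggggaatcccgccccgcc
HMGCS1: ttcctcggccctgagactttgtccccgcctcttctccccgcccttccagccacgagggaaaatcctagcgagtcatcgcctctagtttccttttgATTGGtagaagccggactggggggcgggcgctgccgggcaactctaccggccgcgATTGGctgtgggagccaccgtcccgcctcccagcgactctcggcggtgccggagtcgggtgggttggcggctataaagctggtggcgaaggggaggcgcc
INSIG1: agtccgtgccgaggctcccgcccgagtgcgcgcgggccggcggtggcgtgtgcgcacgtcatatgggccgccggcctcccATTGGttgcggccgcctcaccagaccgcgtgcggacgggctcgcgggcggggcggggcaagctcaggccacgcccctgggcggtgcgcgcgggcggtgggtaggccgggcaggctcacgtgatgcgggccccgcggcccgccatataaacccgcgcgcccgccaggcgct
IDI1: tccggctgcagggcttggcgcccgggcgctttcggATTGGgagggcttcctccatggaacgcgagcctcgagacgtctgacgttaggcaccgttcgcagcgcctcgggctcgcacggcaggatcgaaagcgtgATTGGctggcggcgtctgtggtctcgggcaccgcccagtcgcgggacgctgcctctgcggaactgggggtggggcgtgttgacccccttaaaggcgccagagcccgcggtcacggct
DHCR7: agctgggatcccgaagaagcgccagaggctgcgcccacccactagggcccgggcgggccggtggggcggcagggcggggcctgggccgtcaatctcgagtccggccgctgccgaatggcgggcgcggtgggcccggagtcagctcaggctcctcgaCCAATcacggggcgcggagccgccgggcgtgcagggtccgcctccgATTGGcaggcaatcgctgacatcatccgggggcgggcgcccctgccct
LSS: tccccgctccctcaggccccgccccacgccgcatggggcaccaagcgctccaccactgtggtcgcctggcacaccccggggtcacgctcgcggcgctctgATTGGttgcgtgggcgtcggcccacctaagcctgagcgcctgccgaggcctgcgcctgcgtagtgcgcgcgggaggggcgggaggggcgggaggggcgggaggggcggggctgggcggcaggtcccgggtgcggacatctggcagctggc
These are the windows nearest the canonical start, and further windows of HMGCS1, IDI1 and DHCR7 in the table are not shown. CCAAT was present in all 6 windows shown, against 32% of the 35116 windows of the same length in the table. The sterol regulatory element-like letters were found in SREBF2 only, starting 133 bases before the start, against 0.883% of all windows. Only these letters were searched, so sites that differ from them would be missed. The heat shock element (3 alternating GAA and TTC units with 2 free bases between them), searched in the same way, was in none of the 6 and in 0.441% of all windows. GGGCGG, a motif of Sp1, was in all 6 on 1 strand or the other, against 42.6% of all windows. Of the 4 further windows, 250 bases before to 50 after their starts, 1 of IDI1 held CCAAT, and GGGCGG was missing in that of DHCR7.

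Library totals ran from 30815860 to 47279297 counts, and the lowest was HS scramble replicate 3. LONP1 itself was at 197 to 233 CPM in the scramble libraries and at 11.5 to 28.9 CPM in the siLonp1 libraries. The heat shock gene HSPA1A was at 13.7 to 18.8 CPM in Ctrl libraries and at 1878 to 3888 CPM in the heated ones. Of 9 epithelial markers, 8 passed the filter, with EPCAM at 332 to 456 CPM and KRT8 at 4418 to 6397 CPM, and CDX1 had no count. With siLonp1, 3 of the 8 were higher and 1 lower in Ctrl, 6 and 1 in HS, and 2 and 2 in HS+REC, with medians of 0.15, 0.23 and 0.10 on the log2 scale. Of all genes tested, 26.3% were higher and 22.9% lower in Ctrl, 28.1% and 26.7% in HS, and 26.8% and 27.3% in HS+REC. CDX2, a transcription factor of the intestine and the 1 that was lower in Ctrl and HS, was at 29.5 ± 0.938 and 15.8 ± 1.11 CPM in Ctrl scramble and siLonp1 (mean ± SD, n = 3), and had log2 fold changes of -0.90 (edgeR FDR 2.11e-08) in Ctrl, -1.38 (edgeR FDR 4.18e-11) in HS and -1.07 (edgeR FDR 1.93e-09) in HS+REC. CDH1, the epithelial cadherin, was higher, at 103 ± 8.27 and 158 ± 7.09 CPM in Ctrl, with log2 fold changes of 0.62 (edgeR FDR 1.07e-08), 0.62 (edgeR FDR 1.2e-08) and 0.49 (edgeR FDR 3.45e-07). The summed level of the 9 markers was 9260 to 9678 CPM in Ctrl scramble, 10316 to 11010 in Ctrl siLonp1, 9840 to 10251 in HS scramble, 11566 to 12133 in HS siLonp1, 8758 to 10154 in HS+REC scramble and 8759 to 10865 in HS+REC siLonp1. Of 8 markers of blood, vessel and stromal cells, 3 passed the filter, and PTPRC, CD3E, COL1A2 and DCN had at most 7 counts in any library. Their sum, mostly COL1A1 and CD68, was 19.9 to 22.7 CPM in Ctrl scramble, 24.3 to 26.9 in Ctrl siLonp1, 26.6 to 33.1 in HS scramble, 30.7 to 36.6 in HS siLonp1, 42.2 to 43.3 in HS+REC scramble and 47.1 to 51.7 in HS+REC siLonp1. The part of these differences in the results was not tested.

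Per kilobase of the canonical transcript, FDFT1 was the most abundant of the 8 genes in Ctrl scramble at 79.6 ± 0.332 CPM per kb (mean ± SD, n = 3). DHCR7 followed at 54.0 ± 1.29, SREBF2 at 36.1 ± 0.815, IDI1 at 18.6 ± 0.264 and HMGCS1 at 17.5 ± 0.583 CPM per kb. LSS at 15.2 ± 0.720 and INSIG1 at 14.7 ± 0.648 CPM per kb overlapped between libraries, and SQLE was lowest at 12.3 ± 0.212. FDFT1, DHCR7 and SREBF2 were the most abundant in all 6 groups, in this order, with no overlap between neighbours. INSIG1 moved most in this order, from the fourth place in HS scramble (22.4 ± 2.08 CPM per kb, overlapping IDI1) to the last in Ctrl siLonp1 (7.38 ± 1.07).

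The first question was how these genes differed between siLonp1 and scramble siRNA in cells kept at 37 °C. No second siRNA arm is labelled, so effects of the siRNA on other targets cannot be told apart from loss of LONP1. INSIG1, HMGCS1, SQLE and LSS were lower with siLonp1, with the largest difference in INSIG1, and none of the 8 passed as higher. These 4 of 8 genes passed the test (a Benjamini-Hochberg FDR of at most 0.05 in edgeR's quasi-likelihood test, at any fold), as did 49.2% of all genes tested (26.3% higher and 22.9% lower). The median log2 fold change of the 8 genes was -0.10, and that of all genes tested was 0.01. None of the 8 had a fold change above 2, against 4.17% of all genes tested. The share of the 8 genes called in either direction was close to that of all genes tested.

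INSIG1 had the largest change. It was at 42.4, 41.3 and 44.9 CPM in the 3 Ctrl scramble libraries and at 20.1, 19.3 and 25.01 CPM in Ctrl siLonp1. Every silenced library was far below every scramble library. The log2 fold change was -0.999 (SE 0.0903, edgeR FDR 5.39e-09). HMGCS1 went from 95.8, 90.2 and 95.4 CPM to 80.5, 77.6 and 83.7 CPM, without overlap, with a log2 fold change of -0.22 (SE 0.0597, edgeR FDR 0.00419). SQLE was at 35.7, 36.6 and 36.8 CPM with scramble siRNA and at 29.8, 29.9 and 34.1 CPM with siLonp1, a log2 fold change of -0.22 (SE 0.0729, edgeR FDR 0.0163). The groups of SQLE did not overlap, but replicate 3 of the silenced cells lay close to the scramble libraries. LSS was at 70.5, 75.6 and 77.2 CPM and at 69.1, 62.1 and 64.4 CPM, a log2 fold change of -0.19 (SE 0.0672, edgeR FDR 0.022), and its groups lay close to each other without overlap. The call of SQLE was lost without Ctrl scramble replicate 3 or Ctrl siLonp1 replicate 1 or 2 (largest edgeR FDR 0.0757). The call of LSS was lost without Ctrl scramble replicate 2 or 3 or Ctrl siLonp1 replicate 2 or 3 (largest edgeR FDR 0.1), and without the filter on low counts (edgeR FDR 0.05004).

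The other genes did not pass at 37 °C in the fit of all groups. SREBF2 was at 189.9, 185 and 193 CPM with scramble siRNA and at 205, 203 and 189.7 CPM with siLonp1, and the groups overlapped (log2 fold change 0.07 (SE 0.0567, edgeR FDR 0.297)). IDI1 had a log2 fold change of 0.00 (SE 0.0771, edgeR FDR 0.998) and FDFT1 one of 0.04 (SE 0.0587, edgeR FDR 0.568). DHCR7 was at 146, 140.2 and 139.8 CPM and at 166, 150.2 and 155 CPM, with no overlap, and a log2 fold change of 0.15 (SE 0.0640, edgeR FDR 0.0641). DHCR7 passed as higher with only the groups compared in the fit (0.13, edgeR FDR 0.0226) and without HS+REC replicate 2 of scramble (edgeR FDR 0.0404) or siLonp1 (edgeR FDR 0.0451). The mRNA of the transcription factor itself was thus not detectably different here. In bulk RNA, fewer cells that express a gene and less of its mRNA per cell cannot be told apart.

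**Figure D1:**
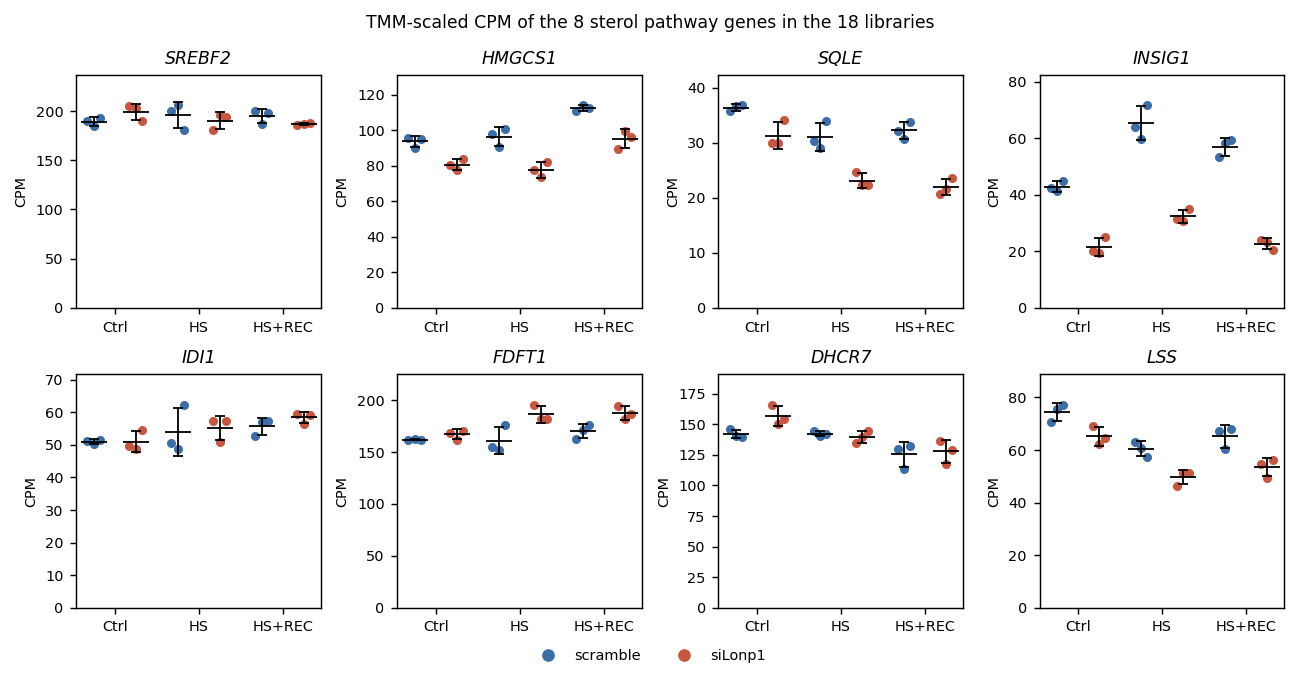
TMM-scaled CPM (y axis, from 0) of the 8 genes in each of the 18 libraries (points), by condition (x axis) and siRNA (blue scramble, red siLonp1), with the group mean and SD in black. INSIG1 lay between 19.3 and 35.0 CPM in all silenced libraries and between 41.3 and 71.7 CPM in all scramble libraries, whereas the points of SREBF2 overlapped between the siRNAs in every condition.

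The same comparison was made in heated cells, and the same 4 genes were lower. In HS, 5 of 8 genes passed the test against 54.8% of all genes tested (28.1% higher and 26.7% lower), 4 of them lower and FDFT1 higher. In HS+REC, 5 of 8 passed against 54.1% of all genes tested (26.8% higher and 27.3% lower), again 4 lower and FDFT1 higher. The median log2 fold change of the 8 was -0.16 in HS and -0.15 in HS+REC, and over all genes tested 0.00 in both. INSIG1 was the only one of the 8 with a fold change above 2, in HS and in HS+REC, where 1.61% and 1.33% of all genes tested fell by as much. In Ctrl and in HS its value lay at that limit, ranging from -1.12 to -0.93 in Ctrl and from -1.07 to -0.94 in HS on the log2 scale without 1 library, so the limit does not separate these conditions.

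INSIG1 was at 64.1, 59.8 and 71.7 CPM in HS scramble and at 31.4, 30.9 and 35.0 CPM in HS siLonp1, a log2 fold change of -1.01 (SE 0.0879, edgeR FDR 3.15e-09). After recovery it was at 53.4, 58.2 and 59.3 CPM with scramble siRNA and at 24.0, 23.4 and 20.5 CPM with siLonp1, a log2 fold change of -1.33 (SE 0.0897, edgeR FDR 3.66e-11). The silenced libraries were below the scramble libraries in both conditions, by a wide margin. SQLE, the squalene epoxidase, was at 30.2, 29.0 and 33.9 CPM in HS scramble and 24.6, 22.2 and 22.3 CPM in HS siLonp1, and at 32.2, 30.7 and 33.8 CPM and 20.7, 21.6 and 23.6 CPM in HS+REC. Its log2 fold change was -0.43 (SE 0.0748, edgeR FDR 4.97e-05) in HS and -0.55 (SE 0.0745, edgeR FDR 1.75e-06) in HS+REC. All silenced libraries were again lowest, and the estimate was larger than the -0.22 of unheated cells, although the tests of that difference did not pass (interaction edgeR FDR 0.351 with HS and 0.119 with HS+REC).

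HMGCS1 was at 97.9, 90.6 and 101 CPM in HS scramble and 77.4, 73.6 and 82.1 CPM in HS siLonp1, a log2 fold change of -0.31 (SE 0.0598, edgeR FDR 0.000143). In HS+REC it was at 111, 114 and 112 CPM and 89.5, 99.8 and 96.5 CPM, a log2 fold change of -0.24 (SE 0.0593, edgeR FDR 0.00163). The silenced libraries of HMGCS1 were below the scramble libraries in each condition. LSS, the lanosterol synthase, was at 63.0, 60.9 and 57.4 CPM and 46.5, 51.1 and 51.4 CPM in HS (log2 fold change -0.28 (SE 0.0682, edgeR FDR 0.00124)) and at 67.3, 60.3 and 67.9 CPM and 54.9, 49.5 and 56.1 CPM in HS+REC (-0.29 (SE 0.0677, edgeR FDR 0.00112)). There was no overlap in either.

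FDFT1 went the other way. Squalene synthase mRNA was at 155, 152 and 176 CPM in HS scramble and at 196, 181 and 182 CPM in HS siLonp1, a log2 fold change of 0.21 (SE 0.0587, edgeR FDR 0.00399). In HS+REC it was at 163, 171 and 176 CPM and 195, 182 and 186 CPM, a log2 fold change of 0.14 (SE 0.0586, edgeR FDR 0.0457). The groups did not overlap in either condition, yet the differences were small. Both calls were lost when libraries were scaled by their totals alone (edgeR FDR 0.0822 in HS and 0.300 in HS+REC). The call in HS+REC lay at the limit and was lost without Ctrl scramble replicate 1, 2 or 3, Ctrl siLonp1 replicate 1 or 3, HS scramble replicate 1, HS siLonp1 replicate 2 or 3, HS+REC scramble replicate 1 or 2 or HS+REC siLonp1 replicate 1 or 3 (largest edgeR FDR 0.172), without the filter on low counts (edgeR FDR 0.0999) and with only the groups compared (edgeR FDR 0.120). SREBF2, IDI1 and DHCR7 did not pass in HS or HS+REC, with log2 fold changes from -0.06 to 0.07.

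**Figure D2:**
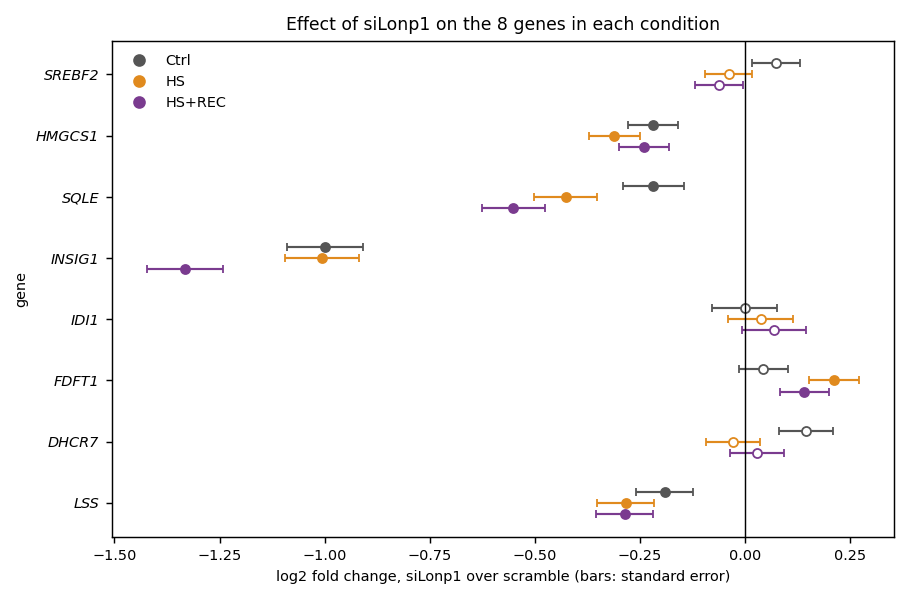
Log2 fold change of siLonp1 over scramble (x axis, bars show the standard error of the edgeR fit) for each gene (y axis) in Ctrl (grey), HS (orange) and HS+REC (purple), with filled points past an FDR of 0.05 and open points not. INSIG1 stands apart at -0.999, -1.01 and -1.33, HMGCS1, SQLE and LSS are below 0 with filled points in all 3 conditions, and FDFT1 is above 0 with filled points in the heated conditions.

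The next question was what heat did to the pathway within each siRNA. After 1 h at 42 °C, INSIG1 was higher and SQLE and LSS were lower, with either siRNA. With scramble siRNA, 3 of 8 genes passed the test, against 36.0% of all genes tested (18.6% higher and 17.3% lower). With siLonp1, 5 of 8 passed, against 42.2% of all genes tested (20.2% higher and 22.1% lower), since FDFT1 also rose and DHCR7 also fell. The median log2 fold change of the 8 was 0.02 with scramble siRNA and -0.06 with siLonp1, beside -0.01 and 0.00 over all genes tested. No fold change of the 8 was above 2, as for most genes (3.30% and 4.57% of all genes tested were past that limit).

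INSIG1 rose from 42.9 ± 1.88 to 65.2 ± 6.03 CPM with scramble siRNA (mean ± SD, n = 3), a log2 fold change of 0.60 (SE 0.0864, edgeR FDR 6.41e-06). With siLonp1 it rose from 21.5 ± 3.10 to 32.4 ± 2.25 CPM, a log2 fold change of 0.60 (SE 0.0911, edgeR FDR 1.03e-05). The relative rise was nearly equal at different starting levels, and the interaction was -0.01 on the log2 scale (edgeR FDR 0.988). SQLE fell by 0.23 on the log2 scale with scramble siRNA (edgeR FDR 0.0156) and by 0.44 with siLonp1 (edgeR FDR 4.02e-05). LSS fell by 0.30 with scramble siRNA (edgeR FDR 0.00117) and by 0.39 with siLonp1 (edgeR FDR 5.15e-05). No HS library of SQLE or LSS reached the level of a Ctrl library of the same siRNA. The call of SQLE with scramble siRNA was lost without HS scramble replicate 1 or 2 (largest edgeR FDR 0.0944).

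The HS responses of the other 5 genes were small. With siLonp1, FDFT1 had a log2 fold change of 0.16 (SE 0.0587, edgeR FDR 0.0342) and DHCR7 one of -0.17 (SE 0.0641, edgeR FDR 0.0364). The call of FDFT1 was lost without Ctrl siLonp1 replicate 1 or 2 or HS siLonp1 replicate 1 (largest edgeR FDR 0.152), and that of DHCR7 without Ctrl siLonp1 replicate 1 or 3, HS scramble replicate 3 or HS siLonp1 replicate 1 or 2 (largest edgeR FDR 0.174). Both were also lost without the filter on low counts (edgeR FDR 0.0572 and 0.0617), that of FDFT1 with libraries scaled by their totals alone (0.11, edgeR FDR 0.124), and that of DHCR7 with a CPM above 1 in all libraries (edgeR FDR 0.0731). SREBF2, HMGCS1 and IDI1 did not pass with either siRNA, with log2 fold changes between -0.07 and 0.11. The gene of the pathway's transcription factor was at 181 to 206 CPM over all 18 libraries, and it passed none of the 11 tests (smallest edgeR FDR 0.185). With libraries scaled by their totals alone, SREBF2 passed as lower in HS+REC with siLonp1 (edgeR FDR 0.0160) and with siLonp1 in HS (edgeR FDR 0.0497), and with trends of GC content and length removed as higher in HS+REC with scramble siRNA (edgeR FDR 0.0332).

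After 1 h of recovery HMGCS1 was newly called. INSIG1 with scramble siRNA, and SQLE, LSS and DHCR7 with siLonp1, changed more than HMGCS1. HMGCS1 did not pass against Ctrl in HS, and in HS+REC it was higher with either siRNA. The HS and HS+REC comparisons share their Ctrl libraries. With scramble siRNA, 4 of 8 genes passed against Ctrl (INSIG1 and HMGCS1 higher, LSS and DHCR7 lower), beside 42.3% of all genes tested (21.8% higher and 20.5% lower). With siLonp1, 6 of 8 passed (HMGCS1, FDFT1 and IDI1 higher, SQLE, LSS and DHCR7 lower), beside 51.2% of all genes tested (24.6% higher and 26.6% lower). The median log2 fold change of the 8 was 0.06 with scramble siRNA and -0.01 with siLonp1, and 0.00 over all genes tested with either.

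HMGCS1 was at 93.8 ± 3.12 CPM in Ctrl scramble, 96.4 ± 5.27 CPM in HS scramble and 113 ± 1.71 CPM in HS+REC scramble (n = 3 each). With siLonp1 the means were 80.6 ± 3.02, 77.7 ± 4.29 and 95.3 ± 5.27 CPM. Every recovered library was above every Ctrl and HS library of the same siRNA. Against Ctrl, the log2 fold change was 0.26 (SE 0.0593, edgeR FDR 0.000926) with scramble siRNA and 0.24 (SE 0.0597, edgeR FDR 0.00166) with siLonp1. INSIG1 remained above Ctrl with scramble siRNA, at 57.0 ± 3.13 CPM and a log2 fold change of 0.41 (SE 0.0863, edgeR FDR 0.000461). With siLonp1 it was at 22.6 ± 1.91 CPM, its libraries overlapped those of Ctrl, and the log2 fold change was 0.08 (SE 0.0924, edgeR FDR 0.511). The difference between these responses was -0.33 on the log2 scale and did not pass (interaction edgeR FDR 0.215).

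LSS fell by 0.19 on the log2 scale against Ctrl with scramble siRNA (edgeR FDR 0.0249) and fell by 0.29 with siLonp1 (edgeR FDR 0.00113). The first was lost without Ctrl scramble replicate 2 or 3 or HS+REC scramble replicate 2 (largest edgeR FDR 0.136). SQLE fell by 0.51 with siLonp1 (edgeR FDR 4.69e-06), and with scramble siRNA it missed the limit at -0.17 (SE 0.0726, edgeR FDR 0.057), although its libraries did not overlap. There SQLE passed with libraries scaled by their totals alone (-0.26, edgeR FDR 0.00620), with the trends of GC content and length removed (-0.23, edgeR FDR 0.00292), with DESeq2 (adjusted p 0.0372), with its size factors in edgeR (edgeR FDR 0.0426) and without HS+REC scramble replicate 3 (edgeR FDR 0.0401) or Ctrl siLonp1 replicate 3 (edgeR FDR 0.0477). DHCR7, the last reductase, was at 130.2, 113 and 133 CPM with scramble siRNA and 136, 118 and 129 CPM with siLonp1, with log2 fold changes of -0.18 (SE 0.0641, edgeR FDR 0.0283) and -0.30 (SE 0.0642, edgeR FDR 0.000474). The call of DHCR7 with scramble siRNA was lost without Ctrl scramble replicate 1 or 2 or HS+REC scramble replicate 2 (largest edgeR FDR 0.188), with a CPM above 1 in all libraries (edgeR FDR 0.0522) and with only the groups compared (edgeR FDR 0.0615). FDFT1 rose with siLonp1 by 0.17 (SE 0.0586, edgeR FDR 0.0197), a call lost without Ctrl siLonp1 replicate 2 or HS+REC siLonp1 replicate 1 (largest edgeR FDR 0.0812) and without the filter on low counts (edgeR FDR 0.0732). IDI1 rose by 0.20 (SE 0.0770, edgeR FDR 0.0366), a call lost without Ctrl siLonp1 replicate 1 or 2 or HS+REC siLonp1 replicate 1 or 3 (largest edgeR FDR 0.133). With libraries scaled by their totals alone, both calls were lost, at 0.09 for FDFT1 (edgeR FDR 0.195) and 0.12 for IDI1 (edgeR FDR 0.205), and IDI1 was also lost with the trends of GC content and length removed (0.12, edgeR FDR 0.0922).

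**Figure D3:**
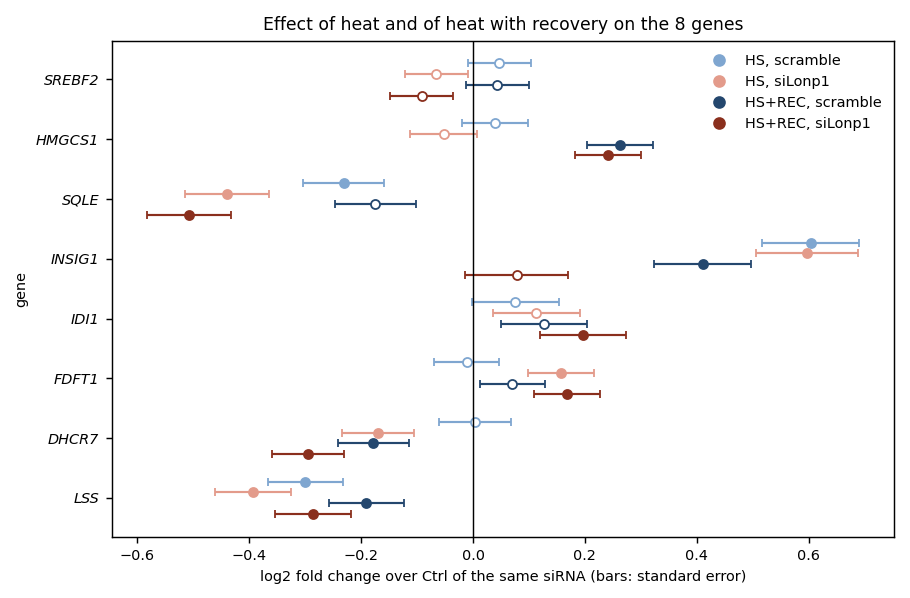
Log2 fold change over Ctrl of the same siRNA (x axis, bars show the standard error of the edgeR fit) for each gene (y axis), in HS (light) and HS+REC (dark) with scramble (blue) and siLonp1 (red), filled past an FDR of 0.05. INSIG1 is highest in HS at 0.60 with either siRNA, HMGCS1 has filled points in HS+REC, at 0.26 and 0.24, and open ones in HS, and SQLE and LSS are below 0 in all 4 comparisons.

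Set directly against HS, HS+REC gave calls among the 8 genes at a share close to that of all genes tested. With scramble siRNA, 2 of 8 passed, beside 26.8% of all genes tested (14.2% higher and 12.7% lower). With siLonp1 2 of 8 passed, beside 31.9% (16.3% higher and 15.6% lower). The median log2 fold change of the 8 was 0.05 with scramble siRNA and -0.01 with siLonp1, beside 0.01 and -0.01 over all genes tested. HMGCS1 rose in both, by 0.22 (SE 0.0594, edgeR FDR 0.00617) and 0.29 (SE 0.0598, edgeR FDR 0.000449) on the log2 scale, the first of which was lost without HS scramble replicate 2 (edgeR FDR 0.0532). INSIG1 fell by 0.52 with siLonp1 (edgeR FDR 8.32e-05), and with scramble siRNA its log2 fold change was -0.19 (edgeR FDR 0.102), which passed with libraries scaled by their totals alone (-0.25, edgeR FDR 0.0309) and with the trends of GC content and length removed (-0.21, edgeR FDR 0.0265). LSS passed as higher with those trends removed, with scramble siRNA (0.18, edgeR FDR 0.00553) and siLonp1 (0.15, edgeR FDR 0.0136). DHCR7 fell by 0.18 with scramble siRNA (edgeR FDR 0.0384), a call lost without HS scramble replicate 1 or 2 or HS+REC scramble replicate 2 (largest edgeR FDR 0.234) and with only the groups compared (edgeR FDR 0.0978).

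Whether the heat responses differed between the siRNAs was tested by the interactions. None of the 8 genes passed for HS or for HS+REC, beside 1.87% and 1.58% of all genes tested. At an unadjusted p under 0.05 there were 0 of the 8 genes for HS and 2 for HS+REC, SQLE and INSIG1, and DESeq2 called none in either. The widest estimates were those of SQLE and INSIG1 in HS+REC, both -0.33 on the log2 scale. With trends of GC content and length removed, an alternative chosen after seeing the data, SQLE passed in HS+REC (-0.31, edgeR FDR 0.0420). None of the 40 genes of the other lists passed an interaction test in the fit of all groups. TMEM97, a sterol-responsive gene, passed for HS with DESeq2 (adjusted p 0.0491), with only the groups compared (edgeR FDR 0.0383) and with the GC and length trends removed (edgeR FDR 0.00886), and for HS+REC with those trends removed (edgeR FDR 0.0321). LBR passed for HS with only the groups compared (edgeR FDR 0.0404) or the trends removed (edgeR FDR 0.0200), NPC1 for HS+REC with the trends removed (edgeR FDR 0.0424), and FASN for HS without the filter on low counts (edgeR FDR 0.0441).

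The wider pathway was followed in 40 further genes of 6 lists, all of which passed the filter. Of 15 other enzymes of the pathway, 5 were lower and 1 was higher with siLonp1 in Ctrl, 7 and 3 in HS, and 8 and 2 in HS+REC. Of all genes tested, 22.9% were lower and 26.3% higher in Ctrl, 26.7% and 28.1% in HS, and 27.3% and 26.8% in HS+REC. The count of lower enzymes in HS fell to 3 without HS siLonp1 replicate 2 and to 4 without HS scramble replicate 3, and PMVK, ACAT2 and NSDHL were among the calls lost in either fit. In Ctrl the count of lower enzymes was 10 with libraries scaled by their totals alone and 9 with the trends of GC content and length removed. In those fits the median log2 fold change of all genes tested was -0.0652 and -0.0242. The single higher call in Ctrl was lost without Ctrl scramble replicate 3 or Ctrl siLonp1 replicate 2 and with libraries scaled by their totals alone. The count of higher calls was 2 without HS scramble replicate 3, HS+REC scramble replicate 3 or HS+REC siLonp1 replicate 1. It was also 2 without the filter on low counts, with only the groups compared, and with the trends removed. Both higher calls in HS+REC were lost without each of HS+REC scramble replicates 1 and 2 and HS+REC siLonp1 replicates 1 and 3, with scaling by totals alone, and with only the groups compared in the fit. The median log2 fold change of the 15 enzymes was -0.10, -0.15 and -0.23, beside 0.01, 0.00 and 0.00 over all genes tested. In Ctrl, 4 of the 6 mevalonate and isoprenoid enzymes were lower, and 1 of the 9 enzymes from lanosterol to cholesterol, beside 22.9% of all genes tested. MVK, the mevalonate kinase, was at 20.3 to 26.0 CPM in scramble libraries and 13.2 to 16.6 CPM in silenced ones, without overlap. Its log2 fold change was -0.67 (edgeR FDR 1.17e-06) in Ctrl, -0.65 (edgeR FDR 1.51e-06) in HS and -0.71 (edgeR FDR 4.12e-07) in HS+REC.

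PMVK, the next kinase, had a log2 fold change of -0.41 (edgeR FDR 0.0034) with siLonp1 in Ctrl, MVD, the decarboxylase after it, -0.30 (edgeR FDR 0.0102), and ACAT2, an acetyl-CoA thiolase, -0.27 (edgeR FDR 0.00647). HSD17B7, which works between lanosterol and cholesterol, was at -0.35 (edgeR FDR 0.0108), a call lost without Ctrl scramble replicate 3 (edgeR FDR 0.0693). TM7SF2, a sterol reductase, was higher with siLonp1 in HS, with a log2 fold change of 0.28 (edgeR FDR 0.00465), a call lost with libraries scaled by their totals alone (0.19, edgeR FDR 0.0507).

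The heat responses of the other enzymes differed by gene. MSMO1, a sterol demethylase, rose in HS by 0.52 (edgeR FDR 0.000363) and 0.49 (edgeR FDR 0.000515), and HSD17B7 rose in HS+REC by 0.69 (edgeR FDR 7.64e-06) and 0.57 (edgeR FDR 0.000107). PMVK rose in HS+REC by 0.48 with scramble siRNA and 0.66 with siLonp1. Its mean went from 23.0 to 32.2 CPM and from 17.3 to 27.4 CPM. LBR, a lamin receptor with sterol reductase activity, fell in HS by 0.32 and 0.55 on the log2 scale (edgeR FDR 0.000258 and 1.24e-07). Counted over the 15 enzymes, 2 rose and 2 fell in HS with scramble siRNA, 3 and 2 with siLonp1, and the numbers in HS+REC were 3 and 1, and 2 and 3. Of all genes tested, 18.6% rose and 17.3% fell in HS with scramble siRNA, 20.2% and 22.1% with siLonp1, and in HS+REC 21.8% and 20.5%, and 24.6% and 26.6%. Over the alternatives run, the counts of enzymes that rose and fell ranged from 1 to 3 and 1 to 2 in HS with scramble siRNA, 1 to 5 and 2 to 3 with siLonp1, and in HS+REC 2 to 3 and 1 to 4, and 2 to 4 and 1 to 6. In HS with scramble siRNA, 1 rose when Ctrl scramble replicate 1 or 2, HS scramble replicate 2 or 3, any of the Ctrl siLonp1 libraries, or replicate 2 of HS siLonp1 or of HS+REC siLonp1 was left out, and 1 fell without HS scramble replicate 1 or 2. In HS with siLonp1, 1 rose without Ctrl siLonp1 replicate 2 or HS siLonp1 replicate 3. In HS+REC with siLonp1, 4 rose without HS+REC siLonp1 replicate 1, 2 fell without Ctrl siLonp1 replicate 1 or 3, and 6 fell with scaling by totals alone or with the trends removed. The 4 medians lay between -0.04 and 0.05.

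**Figure D4:**
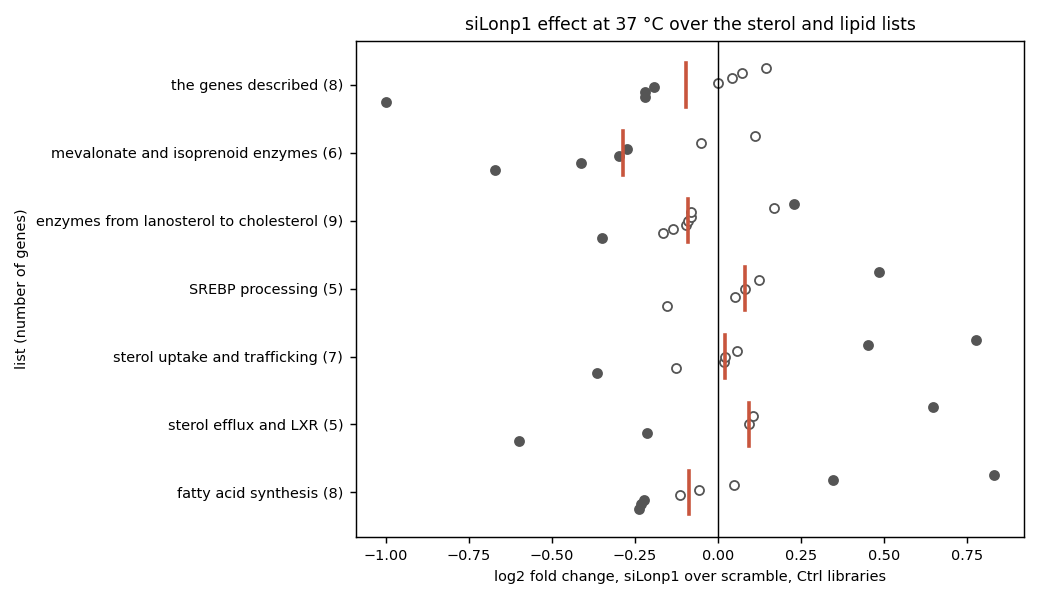
Log2 fold change of siLonp1 over scramble in Ctrl libraries (x axis) for each gene (point) of the 8 genes and the 6 other lists (y axis, with the number of genes), filled past an edgeR FDR of 0.05, with the median of each list as a red line. INSIG1 is farthest to the left at -0.999, the mevalonate and isoprenoid enzymes have the lowest median at -0.29, and ACSS2 is farthest to the right at 0.83.

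Among the genes that act on SREBP itself, the picture differed by gene. MBTPS1, the first of the proteases that cut SREBP, was higher with siLonp1, with a log2 fold change of 0.49 (edgeR FDR 4.03e-08) in Ctrl, 0.42 (edgeR FDR 3.61e-07) in HS and 0.46 (edgeR FDR 7.17e-08) in HS+REC. SCAP, the escort of SREBP, was lower with siLonp1 by a log2 fold change of -0.31 (edgeR FDR 0.000358) in HS and -0.23 (edgeR FDR 0.0042) in HS+REC. In Ctrl it was at 78.1, 81.8 and 81.2 CPM with scramble siRNA and 75.3, 72.7 and 68.8 CPM with siLonp1, without overlap, with a log2 fold change of -0.15 (edgeR FDR 0.0562). There it passed as lower with RLE size factors, scaling by totals alone, DESeq2, only the groups compared or the trends of GC content and length removed, with an FDR from 2.84e-06 to 0.0464 in edgeR and 0.0401 in DESeq2. It also passed there without HS scramble replicate 3, HS+REC scramble replicate 2 or HS+REC siLonp1 replicate 2 (edgeR FDR 0.0398 to 0.0456). INSIG2, the paralogue of INSIG1, rose in HS+REC by 0.58 (edgeR FDR 1.35e-05) with scramble siRNA and 0.69 (edgeR FDR 8.48e-07) with siLonp1, and with siLonp1 in HS it was higher by 0.38 (edgeR FDR 0.00134). INSIG2 was thus not lower with siLonp1 in HS, where INSIG1 was. SREBF1, which encodes the SREBP of fatty acid synthesis, was at 151 to 164 CPM in Ctrl libraries, and its log2 fold change with siLonp1 was 0.05 (edgeR FDR 0.59), -0.15 (edgeR FDR 0.101) and -0.11 (edgeR FDR 0.23) in the 3 conditions. With libraries scaled by their totals alone it passed as lower with siLonp1 in HS (-0.24, edgeR FDR 0.00879) and HS+REC (-0.18, edgeR FDR 0.0481), as it did with the trends of GC content and length removed (-0.09, edgeR FDR 0.0325, and -0.16, edgeR FDR 0.000370). In HS it also passed without HS scramble replicate 3 (edgeR FDR 0.0150) or HS siLonp1 replicate 2 (edgeR FDR 0.0456). SREBF1 fell by 0.20 on the log2 scale in HS+REC with scramble siRNA and fell by 0.36 with siLonp1 (edgeR FDR 0.0336 and 0.000297), the first of which was lost without Ctrl scramble replicate 1, 2 or 3 or HS+REC scramble replicate 2 (largest edgeR FDR 0.204) and with a CPM above 1 in all libraries (edgeR FDR 0.0635).

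MYLIP, a ubiquitin ligase and a known target of the sterol sensor LXR, had CPM values of 6.18, 6.19 and 5.86 in Ctrl and 18.8, 22.8 and 22.2 in HS with scramble siRNA, and was at 4.33, 3.43 and 4.29 CPM in Ctrl and 14.3, 17.0 and 15.8 CPM in HS with siLonp1. MYLIP had the largest HS response among these 8 and 40 genes, with a log2 fold change of 1.81 (edgeR FDR 1.15e-12) with scramble siRNA and 1.97 (edgeR FDR 7.77e-13) with siLonp1. With siLonp1 it fell by 0.60 in Ctrl (edgeR FDR 0.000189). MYLIP thus rose in HS with either siRNA, without overlap, and started lower in silenced cells. STARD4, a carrier of cholesterol between membranes, was higher with siLonp1 by 0.78 (edgeR FDR 4.84e-07) in Ctrl, and NPC2, which exports cholesterol from lysosomes, by 0.45 (edgeR FDR 6.77e-05). TMEM97, the sigma-2 receptor and a sterol-responsive gene, had a log2 fold change of -0.36 (edgeR FDR 1.68e-05) in Ctrl, -0.62 (edgeR FDR 7.79e-09) in HS and -0.59 (edgeR FDR 1.23e-08) in HS+REC.

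**Figure D5:**
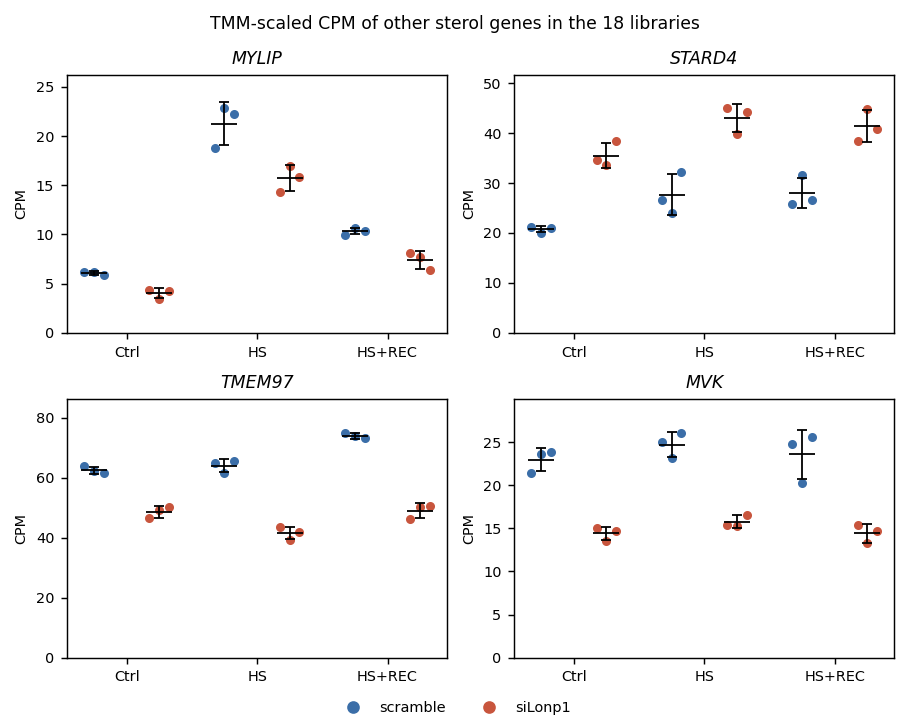
TMM-scaled CPM (y axis, from 0) of MYLIP, STARD4, TMEM97 and MVK in each of the 18 libraries (points), by condition (x axis) and siRNA (blue scramble, red siLonp1), with the group mean and SD in black. MVK and TMEM97 are lower and STARD4 is higher in silenced libraries of every condition, and MYLIP is highest in HS with either siRNA.

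On the efflux side, ABCG1, a cholesterol exporter, was higher with siLonp1 by 0.65 (edgeR FDR 1.2e-05) in Ctrl, 0.74 (edgeR FDR 1.76e-06) in HS and 0.69 (edgeR FDR 4.43e-06) in HS+REC. ABCA1, another cholesterol exporter, was low throughout, with CPM values of 2.19, 1.75 and 2.19 in Ctrl and 0.883, 1.06 and 1.41 in HS+REC with scramble siRNA, and of 1.93, 2.26 and 1.71 in HS+REC with siLonp1. It fell by 0.85 on the log2 scale in HS+REC against Ctrl with scramble siRNA (edgeR FDR 0.0017), and in HS+REC it was higher with siLonp1 by 0.81 (edgeR FDR 0.00245), without overlap in either comparison. Its log2 fold change with siLonp1 was 0.11 (edgeR FDR 0.673) in Ctrl and 0.30 (edgeR FDR 0.192) in HS, where it passed without HS scramble replicate 2 (edgeR FDR 0.0364). The interaction of siLonp1 and HS+REC for ABCA1 was 0.70 (edgeR FDR 0.252). Of the 8 genes of fatty acid synthesis, 2 were higher and 3 lower with siLonp1 in Ctrl, beside 26.3% and 22.9% of all genes tested. ACSS2, which makes acetyl-CoA from acetate, was higher by 0.83 (edgeR FDR 4.32e-09) and FADS2, a desaturase, by 0.35 (edgeR FDR 0.00129). FADS1, the desaturase next to it in the genome, was lower (-0.24 (edgeR FDR 0.000938)). FASN, the fatty acid synthase, was lower too (-0.23 (edgeR FDR 0.0447)), a call lost without Ctrl scramble replicate 1, 2 or 3, Ctrl siLonp1 replicate 2 or 3 or HS+REC siLonp1 replicate 1 (largest edgeR FDR 0.239), with a replicate block (edgeR FDR 0.0592) and with a CPM above 1 in all libraries (edgeR FDR 0.0516).

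The 8 genes did not vary as 1 unit over the libraries. Over the 18 libraries, the Pearson correlation of log2 CPM was highest between SQLE and LSS (r = 0.86) and between IDI1 and FDFT1 (r = 0.75), and lowest between FDFT1 and LSS (r = -0.72) and SREBF2 and IDI1 (r = -0.70). With group means removed, SREBF2 went against IDI1 (r = -0.80) and FDFT1 (r = -0.78), and IDI1 went with FDFT1 (r = 0.86). These are descriptions over 18 points that share libraries, depth and base composition. The GC content of the canonical transcripts was 58% for SREBF2, 58.1% for DHCR7 and LSS, and 37.9% to 46.5% for the other 5. Trends of each library with GC content and length, fitted over all genes, moved SREBF2 by -0.13 to 0.14 and IDI1 by -0.11 to 0.15 on the log2 scale in single libraries, and the part of these trends in the correlations was not tested.

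Outside the 8 genes, the pattern of INSIG1 over the 18 libraries was most like that of INTS4 and GAD1 (r = 0.97 each), SQLE was most like RPN2 and MCM4 (r = 0.97 each), and HMGCS1 was most like FAM198B (r = 0.95) and ZNF766 (r = 0.94). FDFT1 was most like RPS27, NDUFA1 and RPL35A (r = 0.97 each), and SREBF2 most like SUPT5H (r = 0.88). None of the 3 most alike genes of these 5 was on the other sterol lists.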

How the data were processed

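RNAseq was performed by the authors on polyadenylated RNA of SW620 cells in 18 libraries. Per the labels and the study's methods, paired reads of stranded libraries were aligned with STAR 2.7.3a to hg38 and counted per gene with featureCounts, the authors deposited raw counts, and they used edgeR in R 3.6.3. The strand setting of the counting is not given in the sources used here. Groups were taken from the sample labels.

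From the deposited counts, genes with a CPM above 1 in at least 3 libraries entered 1 quasi-likelihood model of the 6 groups (edgeR 4.0.16 under R 4.3.3, TMM scaling), with Benjamini-Hochberg adjustment over all 12832 genes. A gene passed at an FDR of at most 0.05, and the study's limit, a fold above 2 as well, was counted beside it. The common biological coefficient of variation was 0.0658. The CPM values given are TMM-scaled, whereas the filter used CPM without this scaling, and fold changes used a prior count of 0.125. Correlations used log2 CPM with a prior count of 2. Positions and transcript lengths came from GENCODE, and upstream sequences from RefSeq.

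The 8 genes and the other lists were chosen with earlier results of these data known. The 8 genes were described in full, and from the other lists at most 5 genes a list and comparison were named, with SREBF1 in any case. Naming did not follow size of change throughout, and some genes not named for a comparison changed more than those named. Some genes of these lists are not reported here, and list counts are without them. Alternatives were other scalings and filters, DESeq2 1.42.0, a likelihood ratio test, a replicate term, fewer groups in the fit, stricter limits and each library left out. The scripts were tested on simulated data.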

Additional observations from a re-analysis of the deposited data

Results flagged for a closer look

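The difference between the siRNAs in the heat response passed the interaction test in 240 genes for HS and 203 for HS+REC, and a pair of the 6 genes used as checks of silencing and heat was among them. LONP1, the silenced gene, had interactions of -0.76 with HS (edgeR FDR 0.000468) and 0.43 with HS+REC (edgeR FDR 0.0321), at the low residual level of the silenced libraries. The second was lost with a replicate block (edgeR FDR 0.0557), with only the groups compared (edgeR FDR 0.0727), and without any 1 of Ctrl scramble replicates 1, 2 and 3, Ctrl siLonp1 replicates 1 and 3, HS+REC scramble replicates 1 and 2, and HS+REC siLonp1 replicates 1 and 3 (largest edgeR FDR 0.113). HSPH1, a heat shock chaperone, had interactions of 0.75 with HS (edgeR FDR 0.000585) and 0.60 with HS+REC (edgeR FDR 0.00626).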

How the results depend on the processing

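No result of the 8 genes that passed changed direction under any alternative run. With libraries scaled by their totals alone, the median log2 fold change of all genes tested also moved. It was -0.0652, -0.096 and -0.0741 for siLonp1 in Ctrl, HS and HS+REC. Against Ctrl it was -0.0398 in HS and -0.0859 in HS+REC with scramble siRNA, and -0.048 and -0.0834 with siLonp1. The part of this shift in single calls was not tested. Without the filter on low counts, 3 of the 8 genes passed in HS with siLonp1. At an FDR of at most 0.01, the numbers were 3 in HS with siLonp1, 2 in HS+REC with scramble siRNA, 1 in HS+REC against HS with scramble siRNA and 2 for siLonp1 in Ctrl. With a fold above 2 as well, 0 passed in the 6 heat and recovery comparisons and for siLonp1 in Ctrl, and 1 (INSIG1) passed for siLonp1 in HS and in HS+REC. With only the groups compared in the fit, 1 passed in HS+REC against HS with scramble siRNA. With trends of GC content and length removed, chosen after seeing the data, 4 passed there and 1 (SQLE) passed the interaction with HS+REC. Without 1 library, the numbers ranged from 2 to 3 in HS and 2 to 5 in HS+REC with scramble siRNA, 3 to 5 and 4 to 6 with siLonp1, 0 to 2 and 2 to 3 in HS+REC against HS with scramble siRNA and siLonp1, 2 to 5, 5 to 5 and 4 to 5 for siLonp1 in Ctrl, HS and HS+REC, and 0 to 0 for either interaction. Of 36 calls, 23 passed in every alternative fit, among them all 7 of INSIG1. Over all genes tested, libraries with the same replicate number did not deviate together throughout (r from -0.379 to 0.462, median -0.0222, over 45 pairs of libraries, 10 of them above 0.1). The mean of the 8 genes was below its group mean in replicate 2 of all 6 groups (by -0.06 to -0.02 on the log2 scale) and above it in replicate 3 of all 6 (by 0.01 to 0.06). With a replicate block, SQLE passed in HS+REC with scramble siRNA (edgeR FDR 0.0397), FDFT1 was lost for siLonp1 in HS+REC (edgeR FDR 0.0501), and no other call of the 8 genes changed. The cause of these changes was not tested. The p-values cover the spread between 3 libraries a group.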
